A study of Homo sapiens with 15 samples.

Results

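Cholesterol efflux and liver X receptor (LXR) target genes were followed across the microRNA mimic transfections of PC3 and DU145 prostate cancer cells. The set was a list of 8 genes, namely the cholesterol exporters ABCA1 and ABCG1, the receptor genes NR1H2 and NR1H3, the receptor targets MYLIP and LPCAT3, and the lysosomal cholesterol genes NPC1 and NPC2. Of these, 7 were measured, each by 1 array feature, among 18377 genes with a feature of their own. NR1H2 was not analysed here. The list was chosen by a measured value, the ABCA1 level already seen to be higher on the miR-224 arrays than on the scrambled arrays of both lines. For that reason ABCA1 is given without a p-value wherever miR-224 arrays enter, and all members are given without one for miR-224 against the scrambled mimic.

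Total RNA was hybridised to 15 Affymetrix arrays (Human Gene 1.0 ST), 48 h after cells were reverse transfected with 20 nM mimic and a lipid reagent. Mimics are short synthetic duplexes that load a chosen microRNA into the cell's silencing machinery, and a scrambled mimic has no intended target. PC3 comes from a bone metastasis and DU145 from a brain metastasis of prostate cancer, and both are established cell lines. The study placed both microRNAs at the GABRE locus, whose methylation it examined in prostate cancer. The groups in each line were miR-224 mimic, miR-452 mimic, scrambled mimic no. 2 and cells without transfection. Each group had 2 arrays, except that the DU145 scrambled group had 1, because the submitters left out a second array that performed badly. Untransfected cells received neither mimic nor transfection reagent as far as the labels say, so the scrambled arrays differ from them by both. A medium change at 6 h is recorded for the transfected groups only, so they differ from untransfected cells by that as well. All groups are recorded with 10% serum.

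LXRs are nuclear receptors that bind oxysterols and, paired with a retinoid X receptor, switch on genes that lower the sterol content of a cell. ABCA1 moves cholesterol and phospholipid from the plasma membrane to lipid-poor apolipoprotein A-I, ABCG1 moves cholesterol to formed HDL particles, MYLIP is the ubiquitin ligase that marks lipoprotein receptors of the LDL receptor family for degradation, and LPCAT3 places polyunsaturated chains in membrane phospholipids. NPC1 and NPC2 carry cholesterol out of the lysosome, from where it can reach the exporters, and human macrophages raise both on LXR activation.

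The mature sequences of the microRNAs are shown because the same ABCA1 feature stood above the controls with the miR-224 mimic and below them with the miR-452 mimic in PC3, and because the part that pairs with messenger RNAs differs between them. Capitals mark the seed, bases 2 to 8. Per RefSeq on GRCh38.p14 they lie on the minus strand of chromosome X, miR-224-5p at chrX:151958628-151958652 and miR-452-5p at chrX:151959678-151959699. The labels give neither the arm nor the sequence of the mimics, and the 5p arms are printed as the annotated forms.
hsa-miR-224-5p: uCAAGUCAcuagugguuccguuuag
hsa-miR-452-5p: aACUGUUUgcagaggaaacuga

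The classical LXR element is a direct repeat, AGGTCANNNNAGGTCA, whose 12 fixed letters were searched on both strands from 250 bases before to 50 after each annotated start. ABCA1 held the closest match among the members with a window, 10 of 12 letters on the opposite strand from base -69. The 250 bases before its start, on the minus strand at chr9:104928156-104928405 of GRCh38.p14 per RefSeq, are shown with that match in capitals.
ABCA1: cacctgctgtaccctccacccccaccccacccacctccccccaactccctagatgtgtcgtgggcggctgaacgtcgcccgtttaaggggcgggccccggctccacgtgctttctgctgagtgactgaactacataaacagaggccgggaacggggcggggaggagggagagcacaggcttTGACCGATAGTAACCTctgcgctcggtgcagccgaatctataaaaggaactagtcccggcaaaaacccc
A match of 10 letters or more was present in 2.34% of 35116 windows, and that threshold was set with the ABCA1 match known. The best match had 9 letters in NPC2, 8 in NR1H3, MYLIP and LPCAT3, and 7 in NPC1, where the median over all windows was 8. A match of letters is a description of the sequence and not of binding.

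The log2 levels were used as deposited, and the arrays of each line had been normalized apart, so levels are not compared between lines. Features also differ in how their probes respond, so the percentiles of level given for markers within each line are a coarse check of the labelled cells and no comparison of genes. They ran from 4.49 to 14.18, array medians lay from 6.94 to 7.05 in PC3 and from 6.51 to 6.67 in DU145, and replicate arrays correlated with r of 0.992 to 0.998 across features. A gene was called changed at a Benjamini-Hochberg adjusted p under 0.05 over all 18377 genes in limma. The number of arrays limits the precision, and no label states that replicate arrays came from separate cultures, so p-values reflect spread that may be technical. KRT8, KRT18 and KRT19, keratins of prostate epithelium and its tumours, lay at percentile 97.0 of gene levels or higher in both lines, and CDH1, another epithelial marker, lay at percentile 39.8 in PC3 and 84.9 in DU145. Of the macrophage markers, PTPRC and LYZ lay at percentiles 2.3 to 5.9 and TYROBP at 66.2 in PC3 and 72.5 in DU145. No macrophage marker of 7 was called for a mimic against the scrambled mimic, and at most 2 of 7 rose against untransfected cells (miR-452 in PC3). Epithelial markers moved, with 1 of 5 lower in PC3 and 2 of 5 lower in DU145 for miR-224 against the scrambled mimic, and whether they bear on the members was not tested. Over all genes 16.8% were called in PC3 and 1.94% in DU145 for that comparison. With miR-452 against the scrambled mimic in PC3, 1 of 5 epithelial markers was called higher (5.22% of all genes called). All 5 were higher there at an unadjusted p under 0.05 in limma. The median marker difference with miR-452 was 0.29 in PC3 and -0.12 in DU145. In bulk RNA, fewer cells of a type and less RNA per cell cannot be told apart.

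ABCA1 had the highest levels of either line on the miR-224 arrays. In PC3 it read 8.01 and 8.0 with miR-224, 7.03 and 6.90 with miR-452, 7.38 and 7.30 with the scrambled mimic, and 7.41 and 7.38 in untransfected cells. In DU145 it read 7.64 and 7.68 with miR-224, 6.77 and 6.96 with miR-452, 6.63 with the scrambled mimic, and 6.98 and 6.87 in untransfected cells. Both miR-224 arrays lay above every other array of their line, and in PC3 both miR-452 arrays lay below every other array. Over all genes, 44.0% had miR-452 and scrambled arrays that did not overlap in PC3. The gene spans chr9:104781006-104928155 on GRCh38.p14.

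For miR-224, which chose the gene, the ABCA1 values are a description. The log2 difference against the scrambled mimic was 0.66 ± 0.08 (limma SE) in PC3, a fold of 1.58 (95% interval 1.40 to 1.79), and 1.03 ± 0.12 in DU145, a fold of 2.04 (1.70 to 2.45). Against untransfected cells it was 0.61 ± 0.08 in PC3 and 0.74 ± 0.10 in DU145. Both comparisons use the same miR-224 arrays.

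**Figure D1:**
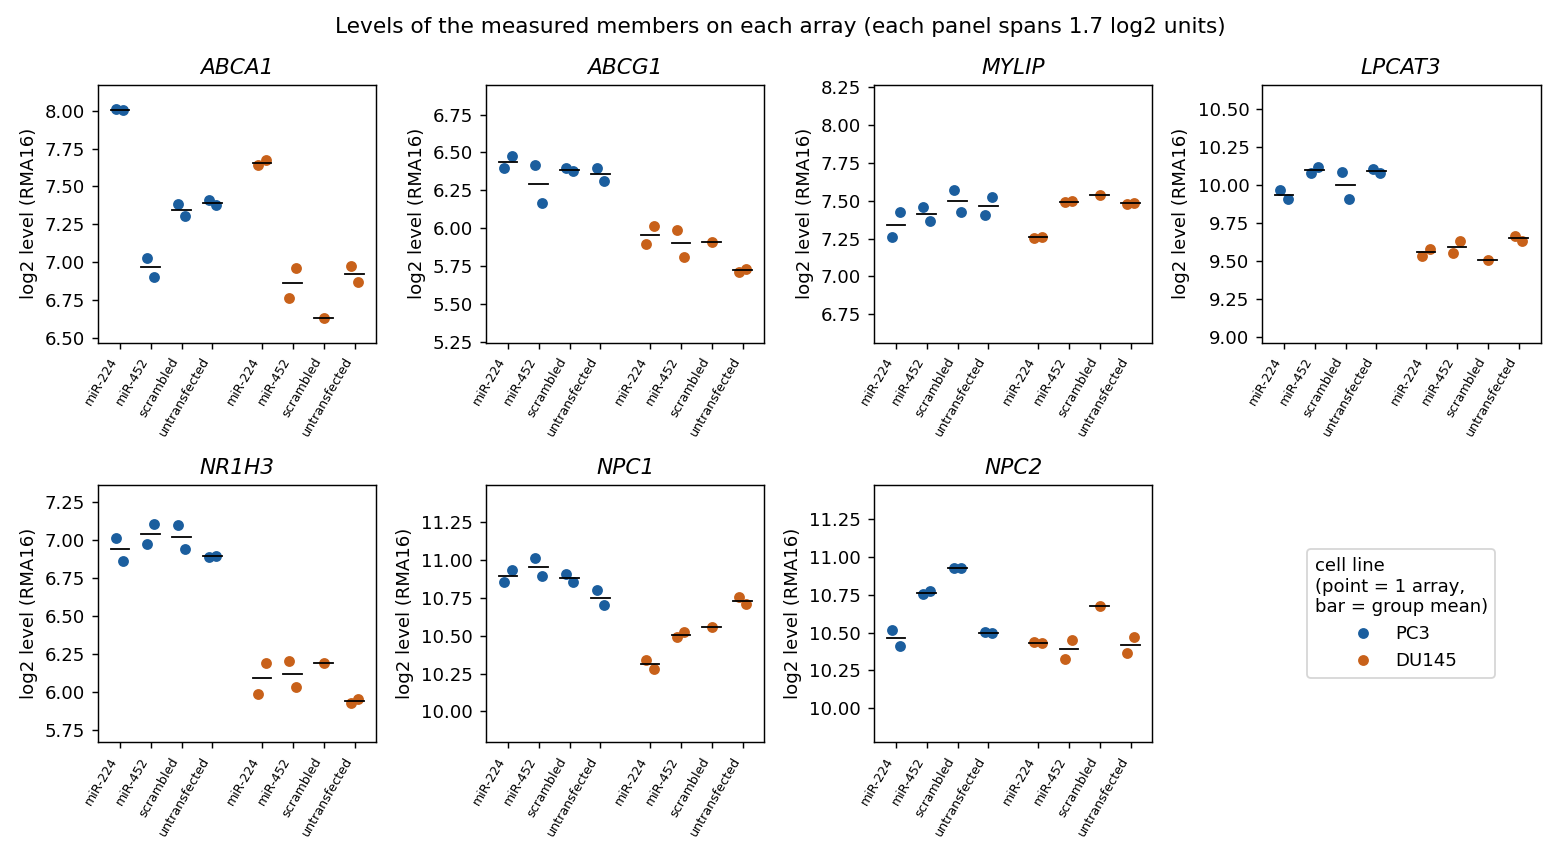
Log2 level (y axis, RMA16 scale) of the 7 measured genes on each of the 15 arrays, by treatment (x axis), in PC3 (blue) and DU145 (orange). Points are arrays, bars are group means, and each panel spans the same number of log2 units. ABCA1 is highest on the miR-224 arrays of both lines (8.01 and 8.0 in PC3, 7.64 and 7.68 in DU145), while ABCG1, MYLIP, LPCAT3 and NR1H3 stay within narrower bands.

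With miR-452, which the choice of the gene did not use, ABCA1 fell in PC3. The log2 difference was -0.38 ± 0.08 against the scrambled mimic (limma adjusted p = 0.0177) and -0.43 ± 0.08 against untransfected cells (limma adjusted p = 0.00452), a fold of 0.744 (0.660 to 0.839). The scrambled arrays also entered the values that chose the gene, and the untransfected arrays did not. Without scrambled b the fall against the scrambled mimic was -0.34 (adjusted p = 0.0954), and without miR-452 c it was -0.32 (adjusted p = 0.148).

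In DU145 no fall of ABCA1 was called. The gene was 0.23 ± 0.12 higher with miR-452 than with the scrambled mimic (limma adjusted p = 0.397, interval -0.03 to 0.50) and differed by -0.06 ± 0.10 from untransfected cells (adjusted p = 0.646). PC3 minus DU145 for the miR-452 difference from the scrambled mimic was -0.61 ± 0.13 with a limma adjusted p of 0.0578, so the lines were not shown to differ at the threshold. Without DU145 miR-452 a, that value was -0.71 with an adjusted p of 0.0345.

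ABCG1, the exporter that loads HDL, was called in no comparison. In PC3 it read 6.40 and 6.48 with miR-224, 6.42 and 6.17 with miR-452, 6.40 and 6.38 with the scrambled mimic, and 6.40 and 6.31 in untransfected cells. The groups overlapped, apart from the miR-224 arrays lying at or just above the scrambled ones, and the log2 difference of miR-224 from untransfected cells was 0.08 ± 0.09 (limma adjusted p = 0.650, interval -0.12 to 0.29).

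In DU145, ABCG1 read 5.90 and 6.01 with miR-224, 5.99 and 5.81 with miR-452, 5.91 with the scrambled mimic, and 5.71 and 5.73 in untransfected cells. All 5 transfected arrays lay above both untransfected ones. Arrays that did not overlap with the untransfected ones were common in DU145, found for 76.0% of all genes with miR-224, 73.3% with miR-452 and 90.9% with the single scrambled array. The difference of miR-224 from untransfected cells was 0.23 ± 0.09 (limma adjusted p = 0.100) and that of miR-452 was 0.18 ± 0.09 (adjusted p = 0.170), neither past the threshold. Against the scrambled mimic the miR-224 difference was 0.05 ± 0.12. Without either DU145 miR-452 array, which only changes the estimate of the spread, the adjusted p for miR-224 against untransfected cells was 0.0358. ABCG1 lies at chr21:42199689-42297244.

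NR1H3 encodes LXR alpha, which in human cells is itself an LXR target. Its levels ran from 6.86 to 7.11 over the 8 PC3 arrays and from 5.92 to 6.20 over the 7 DU145 arrays. Against untransfected cells the miR-224 difference was 0.04 ± 0.09 in PC3 (limma adjusted p = 0.809) and 0.15 ± 0.10 in DU145 (limma adjusted p = 0.290). None of the comparisons tested called it. The gene lies at chr11:47248300-47269033.

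MYLIP, the ligase known as IDOL, had its lowest DU145 levels with miR-224. There it read 7.26 and 7.26 with miR-224, 7.49 and 7.50 with miR-452, 7.54 with the scrambled mimic, and 7.48 and 7.49 in untransfected cells. Both miR-224 arrays lay below all others, and the difference was -0.22 ± 0.08 from untransfected cells (limma adjusted p = 0.0752) and -0.23 ± 0.08 from miR-452 (limma adjusted p = 0.142). Over all genes in DU145, miR-224 arrays did not overlap with untransfected ones for 76.0% and with miR-452 ones for 39.1%. In PC3 the miR-224 arrays, at 7.26 and 7.42, overlapped the untransfected arrays, at 7.40 and 7.53, with a difference of -0.12 ± 0.09 (limma adjusted p = 0.463). Both signs were opposite to that of ABCA1, without a call in either line. Without either DU145 miR-452 array the DU145 difference from untransfected cells had an adjusted p of 0.0292. MYLIP lies at chr6:16129086-16163887.

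LPCAT3, the phospholipid remodelling enzyme, had the narrowest range of the 7 genes in each line. Its levels ran from 9.90 to 10.12 over the PC3 arrays and from 9.50 to 9.66 over the DU145 arrays. The miR-224 difference from untransfected cells was -0.16 ± 0.08 in PC3 (limma adjusted p = 0.280) and -0.09 ± 0.08 in DU145 (limma adjusted p = 0.422), with interval ends of 0.02 and 0.10 on the higher side. LPCAT3 lies at chr12:6976185-7018476.

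NPC1, the membrane protein of lysosomal cholesterol export, fell with miR-224 in DU145 against untransfected cells. It read 10.34 and 10.28 with miR-224, 10.49 and 10.52 with miR-452, 10.56 with the scrambled mimic, and 10.75 and 10.71 in untransfected cells. All transfected arrays lay below the untransfected ones. As for ABCG1, a gap of this kind was common in DU145. The miR-224 difference from untransfected cells was -0.42 ± 0.08 (limma adjusted p = 0.00935), a fold of 0.748 (0.657 to 0.851). Without untransfected b it was -0.40 (adjusted p = 0.110), without untransfected c -0.44 (0.0800), and without miR-224 c -0.39 (0.0767). The miR-452 difference from untransfected cells was -0.22 ± 0.08 (limma adjusted p = 0.0697) and that of the scrambled mimic was -0.17 ± 0.10 (limma adjusted p = 0.252). Against the scrambled mimic the miR-224 difference, given as a description, was -0.25 ± 0.10.

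In PC3 no NPC1 difference was called. It read 10.86 and 10.93 with miR-224, 11.01 and 10.89 with miR-452, 10.90 and 10.85 with the scrambled mimic, and 10.80 and 10.70 in untransfected cells. The untransfected arrays were the lowest, and the difference of miR-224 from them was 0.14 ± 0.08 (limma adjusted p = 0.325). PC3 minus DU145 for that difference was 0.56 ± 0.11 (limma adjusted p = 0.0117), in a fit of both lines. Leaving out 1 of 4 arrays (PC3 untransfected c, PC3 miR-224 b, DU145 untransfected b or DU145 miR-224 c) gave an adjusted p of 0.0604 to 0.0721. As a description, PC3 minus DU145 was 0.26 for miR-224 against the scrambled mimic and 0.30 for the scrambled mimic against untransfected cells. The DU145 side of both rests on 1 scrambled array. NPC1 lies at chr18:23506184-23586506.

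NPC2, the soluble lysosomal protein that hands cholesterol to NPC1, differed between the controls themselves in PC3. It read 10.51 and 10.41 with miR-224, 10.76 and 10.77 with miR-452, 10.93 and 10.92 with the scrambled mimic, and 10.50 and 10.50 in untransfected cells. The scrambled arrays were the highest, the miR-452 arrays came next, and the miR-224 arrays lay on both sides of the untransfected ones. NPC2 rose with the scrambled mimic against untransfected cells by 0.42 ± 0.08 (limma adjusted p = 0.00729) and with miR-452 by 0.26 ± 0.08 (limma adjusted p = 0.0304). It fell with miR-224 against miR-452 by 0.30 on the log2 scale (SE 0.08, limma adjusted p = 0.0168), and was -0.46 ± 0.08 from the scrambled mimic as a description. From untransfected cells the miR-224 difference was -0.04 ± 0.08 (limma adjusted p = 0.809).

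The size of the NPC2 difference with miR-224 in PC3 thus depended on the control. Without untransfected b the scrambled difference of 0.43 had an adjusted p of 0.0849. The miR-452 call was lost without any 1 of the untransfected or miR-452 arrays. The call of miR-224 against miR-452 was lost without miR-224 b (adjusted p = 0.179), miR-452 b (0.0624) or miR-452 c (0.0979). In DU145 the single scrambled array, at 10.67, was again the highest, against 10.37 and 10.47 in untransfected cells, a difference of 0.25 ± 0.11 (limma adjusted p = 0.137). The miR-224 arrays there read 10.43 and 10.43, within the range of the untransfected ones. NPC2 lies at chr14:74479935-74493512.

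**Figure D2:**
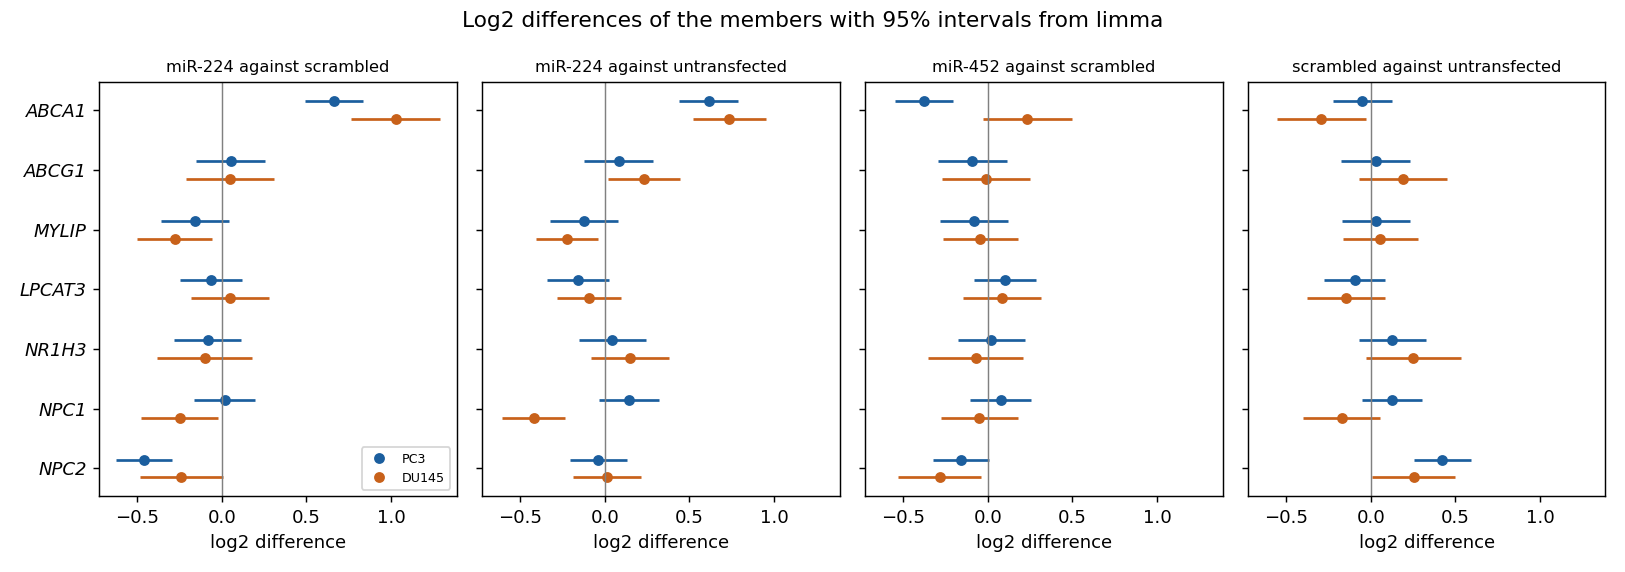
Log2 differences (x axis) with 95% intervals from limma for the 7 measured genes (rows), in PC3 (blue) and DU145 (orange), for 4 comparisons (panels). With miR-224, which chose the gene, the ABCA1 values are a description and nothing is read from their intervals. The miR-224 intervals of ABCG1, MYLIP, LPCAT3 and NR1H3 lie near or across 0. With miR-224, NPC2 is left of 0 in PC3 only against the scrambled mimic (-0.46) and not against untransfected cells (-0.04).

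Counted over the measured genes, 2 of 7 were called for miR-224 against the scrambled mimic in PC3 (ABCA1 higher and NPC2 lower, where 16.8% of all genes were called) and 1 of 7 in DU145 (ABCA1, where 1.94% were called). Those comparisons chose the list, so nothing is read from the counts. Against untransfected cells, the 6 genes other than ABCA1 gave 0 calls in PC3 (9.69% of all genes were called) and 1 in DU145 (NPC1, lower, where 21.0% were called). At an unadjusted p under 0.05 in limma the numbers were 0 of 6 in PC3 and 3 of 6 in DU145. Of all 18377 genes, 1770 were higher and 2591 lower at that threshold in PC3, and 2972 and 4327 in DU145. The median difference of the 6 genes was 0.00 in PC3 and -0.04 in DU145, beside 0.03 and 0.02 over all genes.

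For miR-452 against the scrambled mimic, 1 of 7 genes was called in PC3 (ABCA1, lower, 5.22% of all genes called) and 0 of 7 in DU145 (2.1% called), with 1 of 7 in each line at an unadjusted p under 0.05 in limma. At that threshold 1681 genes in all were higher and 1515 lower in PC3, and 999 and 1850 in DU145. Against untransfected cells miR-452 gave 2 of 7 in PC3 (ABCA1 lower and NPC2 higher, 22.2% called) and 0 of 7 in DU145 (28.2% called). The scrambled mimic against untransfected cells gave 1 of 7 in PC3 (NPC2, 14.2% called) and 0 of 7 in DU145 (11.8% called), with 2 of 7 at an unadjusted p under 0.05 in DU145. There 2511 genes in all were higher and 3664 lower at that threshold. For miR-224 against miR-452 the 6 genes other than ABCA1 gave 1 call in PC3 (NPC2, 18.5% called) and 0 in DU145 (5.91% called). ABCA1 itself differed by 1.04 ± 0.08 (miR-224 minus miR-452) in PC3 and by 0.79 ± 0.10 in DU145. Between lines, 1 of 7 genes differed for miR-224 against untransfected cells (NPC1, 5.13% of all genes called), and 0 of 7 for miR-452 against the scrambled mimic (0.62%) and for the scrambled mimic against untransfected cells (0.207%). At an unadjusted p under 0.05 in limma, 1 of 7 passed in each of the last comparisons. Over all genes, 1350 were higher and 579 lower for miR-452 against the scrambled mimic. For the scrambled mimic against untransfected cells, 913 were higher and 795 lower.

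Beyond the list, 80 of 100 further pathway genes were measured, in 8 groups. Dependence on single arrays is given for 41 of the called differences named within a line. Of these, 8 held with any 1 array left out, and the arrays the others rested on are named beside them. Not among the 41 are VLDLR in DU145, and CYP27A1 and SOAT1 in both lines, each with miR-452 against untransfected cells. MBOAT1, CYP7B1 and SULT2B1 in PC3, in comparisons with the scrambled mimic, are not among them either. Quantile normalization ended 12 of the 41 calls, those of SMPDL3A and APOC1 against untransfected cells, SCD for miR-224 against miR-452, HDAC3, ABCA2 with miR-224, SCARB1, GRAMD1A in DU145, LPCAT2, CYP46A1, SOAT1 with miR-224, and CH25H in both lines. Features not averaged ended 4 (SMPDL3A, ABCA2 and SOAT1 with miR-224 against untransfected cells, and VLDLR in DU145 with miR-452 against the scrambled mimic). The mean of both controls ended the VLDLR call in PC3, both lines in 1 fit the CH25H call in PC3, and trend and robust moderation the CYP46A1 call. Many of the calls were made against untransfected cells, which differ from miR-224 and miR-452 cells in the transfection and its recorded medium change as well. Differences from the scrambled mimic are therefore given beside them, but not for NCOA1, NCOA2, TBL1XR1, GRAMD1B and SREBF2. Of other LXR target genes, 12 of 16 were measured. None was called for miR-224 against the scrambled mimic in either line, with 1 higher and 0 lower in PC3 and 1 each way in DU145 at an unadjusted p under 0.05 in limma. Over all genes 16.8% were called in PC3 and 1.94% in DU145 for that comparison, so nothing is read from the absence of calls. The median difference of the 12 genes was -0.08 in PC3 and -0.02 in DU145, beside -0.01 over all genes in both. Against untransfected cells, 1 rose in PC3 (9.69% of all genes called) and 1 fell in DU145 (21.0% called). SREBF1, the lipogenic transcription factor that LXR induces, differed by -0.08 ± 0.08 in PC3 (limma adjusted p = 0.630) and 0.02 ± 0.09 in DU145 (limma adjusted p = 0.878).

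SMPDL3A, a phosphodiesterase gene that LXR agonists induce in human macrophages, was the 1 that rose. In PC3 it read 6.81 and 7.03 with miR-224, 6.56 and 6.42 with miR-452, 6.57 and 6.68 with the scrambled mimic, and 6.57 and 6.59 in untransfected cells. Both miR-224 arrays lay above all others, and the difference from untransfected cells was 0.33 ± 0.09 (limma adjusted p = 0.0456) and from miR-452 was 0.43 ± 0.09 (limma adjusted p = 0.00787). Against the scrambled mimic it was 0.29 ± 0.09 (limma adjusted p = 0.0544). In DU145 its miR-224 arrays, at 6.18 and 6.23, were also above all others, which ran from 5.76 to 6.08, but SMPDL3A was not called there with miR-224. Over all genes, miR-224 arrays did not overlap with untransfected, scrambled and miR-452 arrays for 56.7%, 56.3% and 62.4% in PC3. In DU145 these shares were 76.0%, 70.9% and 39.1%. APOC1, an apolipoprotein gene of the APOE cluster, fell in DU145 by 0.45 on the log2 scale against untransfected cells (SE 0.11, limma adjusted p = 0.0207), and differed by -0.13 ± 0.13 from the scrambled mimic (limma adjusted p = 0.829). The SMPDL3A call against untransfected cells was lost without miR-224 b (adjusted p = 0.373) or either untransfected array, and that against miR-452 without miR-224 b or miR-452 c. The APOC1 call was lost without any 1 array of its comparison.

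SCD, the stearoyl-CoA desaturase gene, fell in PC3 with miR-452 against the scrambled mimic, by 0.37 (SE 0.09, limma adjusted p = 0.0290). No such fall was called against untransfected cells, where 0 of the 12 genes were lower at an unadjusted p under 0.05 in limma. SCD rose in PC3 with miR-224 against miR-452 by 0.28 ± 0.09 (limma adjusted p = 0.0398). In DU145 it fell with miR-452 against untransfected cells by 0.34 (SE 0.09, limma adjusted p = 0.0253), where ABCA1 was not called, and differed by -0.10 ± 0.11 from the scrambled mimic (limma adjusted p = 0.809). The first of these calls was lost without scrambled b or either miR-452 array, the second without any 1 array of its comparison, and the third without miR-452 a or either untransfected array.

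Among LXR partners and coregulators, 9 of 12 were measured. RXRA and RXRB, the partner receptors, were not called in any comparison, and with miR-224 they differed from untransfected cells by -0.02 and -0.08 in PC3 and by 0.14 and -0.15 in DU145. The coactivators NCOA1 and NCOA2 rose in PC3 with miR-224 against untransfected cells, by 0.35 ± 0.08 (limma adjusted p = 0.0153) and 0.27 ± 0.08 (limma adjusted p = 0.0461). TBL1XR1, part of a corepressor complex, fell there by 0.40 on the log2 scale (limma adjusted p = 0.00869) and in DU145 by 0.51 (limma adjusted p = 0.0105). It also fell with the scrambled mimic, by 0.54 in PC3 (limma adjusted p = 0.00329) and by 0.88 in DU145 (limma adjusted p = 0.0130). HDAC3, of the same complex, fell in DU145 with miR-224 by 0.41 against untransfected cells (limma adjusted p = 0.0169), with a difference of -0.37 ± 0.12 from the scrambled mimic (limma adjusted p = 0.170). Each of these calls was lost without at least 1 array. For NCOA1 these were untransfected c and either miR-224 array, for NCOA2 any array except the scrambled ones, for TBL1XR1 untransfected b in each comparison and further arrays in all but that of the PC3 scrambled mimic, and for HDAC3 any 1 array of its comparison.

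Other exporters and HDL genes numbered 8 of 9. With miR-224, 0 of 8 were called in PC3 against either control, with 1 of 8 at an unadjusted p under 0.05 in limma against the scrambled mimic and 0 against untransfected cells. ABCA2, a transporter of endolysosomal membranes, fell in DU145 by 0.37 against untransfected cells (SE 0.12, limma adjusted p = 0.0479), and differed by -0.05 ± 0.14 from the scrambled mimic (limma adjusted p = 0.979). With miR-452 in DU145, ABCA2 (-0.76 ± 0.12), the HDL receptor gene SCARB1 (-0.39 ± 0.09) and the lung surfactant transporter gene ABCA3 (-0.46 ± 0.10) all fell against untransfected cells (limma adjusted p = 0.00336, 0.0126 and 0.0139). None of the 3 was called for miR-452 against the scrambled mimic there, where the differences were -0.45, -0.28 and -0.50 (limma adjusted p = 0.147, 0.228 and 0.0776). The ABCA2 call with miR-452 held with any 1 array left out. Its call with miR-224 was lost without any 1 array of the comparison, that of SCARB1 without either untransfected array and that of ABCA3 without untransfected b.

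Lysosomal cholesterol and sterol transfer genes, which act beside NPC1 and NPC2, were all measured, 14 of 14. With miR-224 against untransfected cells 3 rose and 2 fell in PC3, where 9.69% of all genes were called, while 0 rose and 6 fell in DU145, where 21.0% were called. Against the scrambled mimic 5 rose and 2 fell in PC3 (16.8% of all genes called) and 0 of 14 were called in DU145 (1.94%), with 3 at an unadjusted p under 0.05 in limma. With miR-452 against untransfected cells 0 of 14 were called in PC3 (22.2% of all genes called), with 1 at an unadjusted p under 0.05 in limma, and 1 rose and 7 fell in DU145 (28.2% called). LIPA, the lysosomal acid lipase that frees cholesterol from lipoprotein esters, fell in both, by 0.55 in PC3 (SE 0.08, limma adjusted p = 0.00200) and by 0.59 in DU145 (SE 0.10, limma adjusted p = 0.00530). Its difference from the scrambled mimic was -0.65 ± 0.08 in PC3 and -0.37 ± 0.12 in DU145 (limma adjusted p = 0.000502 and 0.206). GRAMD1A, which moves plasma membrane cholesterol to the endoplasmic reticulum, also fell in both, by 0.40 in PC3 (limma adjusted p = 0.0106) and by 0.45 in DU145 (limma adjusted p = 0.0175). From the scrambled mimic GRAMD1A differed by -0.42 ± 0.08 in PC3 and -0.36 ± 0.13 in DU145 (limma adjusted p = 0.00497 and 0.245). The LIPA calls held with any 1 array left out, whereas the GRAMD1A calls in PC3 were lost without miR-224 b, and that against untransfected cells also without untransfected c. The DU145 call was lost without any 1 of miR-224 a, untransfected b and untransfected c.

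GRAMD1B, its paralog and itself induced by LXR in macrophages, rose in PC3. It read 10.97 and 10.96 with miR-224, 10.19 and 10.01 with miR-452, 10.33 and 10.26 with the scrambled mimic, and 10.28 and 10.27 in untransfected cells. The miR-224 arrays stood apart, with a difference of 0.68 ± 0.08 from untransfected cells (limma adjusted p = 0.000558). In DU145 it read 10.31 and 10.39 with miR-224, 10.79 and 10.88 with miR-452, 10.40 with the scrambled mimic, and 10.55 and 10.51 in untransfected cells. There GRAMD1B fell with miR-224 against miR-452 by 0.48 (SE 0.09, limma adjusted p = 0.0113), a call lost without either miR-224 array. PC3 minus DU145 for miR-224 against untransfected cells was 0.86 ± 0.11 (limma adjusted p = 0.00239), and this held with any 1 array left out.

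The lipoprotein receptors that MYLIP acts on were covered by 4 of 10 listed genes. VLDLR, the receptor for very low density lipoprotein, fell with miR-452 against the scrambled mimic in both lines, by 0.36 in PC3 (SE 0.09, limma adjusted p = 0.0436) and by 0.51 in DU145 (SE 0.11, limma adjusted p = 0.0469). From untransfected cells VLDLR differed with miR-452 by -0.11 ± 0.09 in PC3 and by -0.58 ± 0.09 in DU145 (limma adjusted p = 0.391 and 0.00330). The scrambled mimic differed from untransfected cells by 0.25 ± 0.09 in PC3 and by -0.08 in DU145, so the PC3 fall depended on the control. With miR-224 against untransfected cells 0 of 4 were called in either line, with 2 of 4 in PC3 and 1 of 4 in DU145 at an unadjusted p under 0.05 in limma. LRP8, a brain and testis receptor of the family, rose with miR-224 against the scrambled mimic in PC3 by 0.48 ± 0.09 (limma adjusted p = 0.00357), and this call held with any 1 array left out. The VLDLR call in PC3 was lost without any array except scrambled b, and in DU145 without any miR-224 or untransfected array.

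Of the paralogs around LPCAT3, 5 of 6 lysophospholipid acyltransferase genes were measured. LPCAT1, which makes saturated phosphatidylcholine, was lowest with the scrambled mimic in both lines. It fell with the scrambled mimic against untransfected cells by 0.60 in PC3 (SE 0.09, limma adjusted p = 0.00353) and by 0.72 in DU145 (SE 0.11, limma adjusted p = 0.0133), and its miR-224 difference from the scrambled mimic was 0.75 ± 0.09 in PC3 (limma adjusted p = 0.000350) and 0.76 ± 0.11 in DU145 (limma adjusted p = 0.0105). MBOAT1 rose with miR-224 against untransfected cells in PC3 by 0.42 ± 0.08 (limma adjusted p = 0.00793), and LPCAT2 fell in DU145 by 0.57 (SE 0.14, limma adjusted p = 0.0186). In PC3 the miR-224 difference of MBOAT1 from the scrambled mimic was 0.88 ± 0.08 (limma adjusted p = 8.18e-05). The scrambled mimic itself differed there from untransfected cells by -0.46 ± 0.08 (limma adjusted p = 0.00647). LPCAT2 differed by -0.05 ± 0.17 for miR-224 against the scrambled mimic in DU145 (limma adjusted p = 0.983), and by -0.53 ± 0.17 for the scrambled mimic against untransfected cells (limma adjusted p = 0.0655). The LPCAT1 calls for the scrambled mimic were lost without untransfected b in either line and without untransfected c in DU145, and its miR-224 call in DU145 without miR-224 c. The MBOAT1 call was lost without untransfected c or miR-224 b, and the LPCAT2 call without miR-224 c or either untransfected array.

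Enzymes that make or remove the oxysterol ligands and that store cholesterol as ester numbered 8 of 9. With miR-224 against untransfected cells, 0 of 8 were called in PC3 (9.69% of all genes called), with 2 of 8 at an unadjusted p under 0.05 in limma, both lower. Against the scrambled mimic 0 rose and 2 fell in PC3 (16.8% called). These were CYP7B1, at -0.29 ± 0.09, and SULT2B1, at -0.28 ± 0.08 (limma adjusted p = 0.03745 and 0.03747). The scrambled mimic itself differed from untransfected cells by 0.34 for CYP7B1 and 0.38 for SULT2B1 (limma adjusted p = 0.0262 and 0.0158). In DU145, against untransfected cells (21.0% called), CYP46A1, the cholesterol 24-hydroxylase of neurons, rose by 0.30 ± 0.09 (limma adjusted p = 0.0414). There the sterol 27-hydroxylase gene CYP27A1 fell by 0.41 (limma adjusted p = 0.0220) and the esterifying enzyme gene SOAT1 by 0.40 (limma adjusted p = 0.0484). Against the scrambled mimic the 3 differences with miR-224 were -0.05, -0.17 and -0.03 (limma adjusted p = 0.972, 0.703 and 0.988), and those of the scrambled mimic from untransfected cells were 0.35, -0.24 and -0.37 (limma adjusted p = 0.0651, 0.195 and 0.129). With miR-452 against untransfected cells 2 of 8 rose and 2 fell in PC3 (22.2% of all genes called), and 1 rose and 3 fell in DU145 (28.2% called). CYP27A1 differed by -0.37 in PC3 and -0.40 in DU145 (limma adjusted p = 0.00819 and 0.0205). SOAT1 differed by -0.33 and -0.57 (limma adjusted p = 0.0231 and 0.0129). From the scrambled mimic CYP27A1 differed by -0.28 and -0.16, and SOAT1 by -0.18 and -0.20. CH25H, which makes 25-hydroxycholesterol, rose in both lines against untransfected cells, by 0.34 ± 0.10 in PC3 (limma adjusted p = 0.0300) and by 0.65 ± 0.15 in DU145 (limma adjusted p = 0.0148). It was not called for miR-452 against the scrambled mimic, at 0.15 ± 0.10 in PC3 and 0.25 ± 0.18 in DU145 (limma adjusted p = 0.507 and 0.617), nor for the scrambled mimic against untransfected cells, at 0.19 and 0.40. The 3 DU145 calls with miR-224 were lost without any 1 array of the comparison, and those of CH25H without untransfected b or miR-452 c in PC3 and without miR-452 a or either untransfected array in DU145.

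Genes of the SREBP2 pathway, which supplies cholesterol by synthesis when sterols are low, had 20 members measured. With miR-224 against untransfected cells 0 rose and 5 fell in PC3, where 521 genes in all rose and 1259 fell, and 0 rose and 11 fell in DU145, where 1000 genes in all rose and 2850 fell. Their median difference was -0.15 in PC3 and -0.40 in DU145, beside 0.03 and 0.02 over all genes. Against the scrambled mimic 3 rose and 5 fell in PC3 (16.8% of all genes called), and 0 rose and 3 fell in DU145 (1.94% called). With miR-452 against untransfected cells 0 rose and 1 fell in PC3 (22.2% of all genes called), and 0 rose and 12 fell in DU145 (28.2% called), with a median of -0.35. The scrambled mimic against untransfected cells gave 0 calls in limma in either line (4 of 20 in PC3 and 3 of 20 in DU145 at an unadjusted p under 0.05), with medians of -0.04 and -0.14. SREBF2, the pathway's transcription factor, read 8.40 and 8.23 with miR-224 in PC3, against 8.90 and 8.90 in untransfected cells, a difference of -0.59 ± 0.11 (limma adjusted p = 0.00727). In DU145 it read 8.49 and 8.49 with miR-224, against 9.26 and 9.34 in untransfected cells, a difference of -0.81 ± 0.09 (limma adjusted p = 0.000704). The DU145 call held with any 1 array left out, and the PC3 call was lost without miR-224 b or either untransfected array (adjusted p = 0.0519 to 0.0714).

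**Figure D3:**
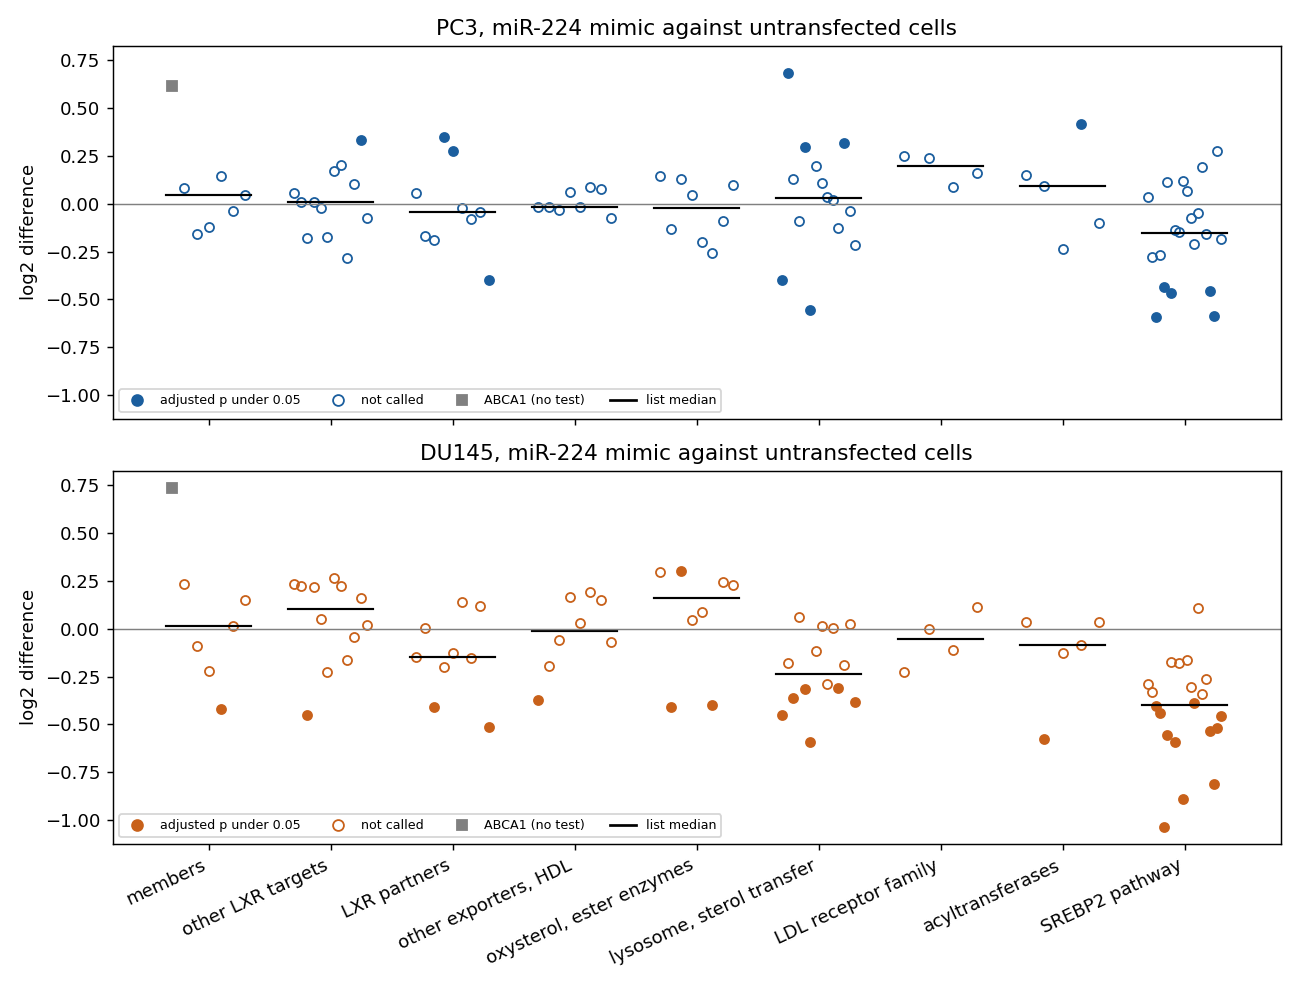
Log2 differences (y axis) of miR-224 against untransfected cells for the measured genes of each list (x axis), in PC3 (top) and DU145 (bottom). Each circle is 1 gene, filled where the limma adjusted p was under 0.05, and bars are list medians. The grey square in the first column is ABCA1 (0.61 in PC3, 0.74 in DU145), which carries no test here, the other LXR targets centre near 0, and the SREBP2 pathway has 5 filled circles below 0 in PC3 and 11 in DU145.

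Across the 15 arrays, with the mean of each line subtracted, the gene levels closest to ABCA1 by Pearson's r were those of TMEM259 (0.940), EIF4EBP2 (0.929), TMEM245 (0.924), CLTC (0.914) and DNAJC27 (0.913). None of these was on any list here. The other members had r of 0.467 (ABCG1), -0.234 (NR1H3), -0.428 (LPCAT3), -0.480 (NPC1), -0.487 (NPC2) and -0.677 (MYLIP) with ABCA1 over the same arrays. The genes closest to NPC2 were NDRG1 (0.926), GNG5 (0.878) and ATOX1 (0.875), and those closest to NPC1 were STRIP2 (0.932), PRKCQ (0.896) and PPP1R3B (0.895). These values describe arrays that share groups and normalization, and carry no test.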

How the data were processed

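Affymetrix Human Gene 1.0 ST arrays were turned by the authors into log2 values with RMA16 in GeneSpring GX 11.0, per the series design text and the labels' protocols. PC3 and DU145 arrays were normalized separately. RMA16 is understood to add 16 before the logarithm, which the sources used here do not state, and if so, folds of dim genes come out too small. Genome build and probe set definition are not given in the sources used here.

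Of 28869 features, 19310 carried 1 symbol, 19279 of which were matched to RefSeq by Entrez number, while 1752 carried several and 7807 none. Features of a symbol were averaged to 18377 genes, 685 of them from several features, and no gene was removed for a low level. NR1H2 had no feature with a single symbol and was not analysed here.

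Groups were compared by two-sided tests in limma 3.58.1 (R 4.3.3, with statmod 1.5.0), with 4 group means per line and 4 residual degrees of freedom in PC3 and 3 in DU145. All 15 arrays with 8 group means gave the differences between lines, with 7. The spread of the single DU145 scrambled array was taken from the other DU145 groups. The fit was tested on simulated data.

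The members, gene lists and markers were chosen with earlier results of these data known. All members are named. Of the other lists, SREBF1, RXRA, RXRB, SCARB1, SREBF2 and HMGCS1 could be named, and otherwise up to 4 passing genes with the smallest p in a comparison, as well as the 5 genes closest to ABCA1 and the 3 closest to members whose groups differed. Alternatives were the mean of both controls, both lines in 1 fit, genes under percentile 20 left out, features not averaged, quantile normalization, trend and robust moderation, a replicate block, and leaving out single arrays. Sequences and coordinates are those of RefSeq.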

Additional observations from a re-analysis of the deposited data

Results flagged for a closer look

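NPC1 was singled out because its miR-224 difference from untransfected cells differed between the lines in a test of that difference itself. PC3 minus DU145 for miR-224 against untransfected cells was 0.56 ± 0.11 on the log2 scale (limma adjusted p = 0.0117), with higher levels than in untransfected cells on both miR-224 arrays in PC3 and lower levels on both in DU145. Against the scrambled mimic PC3 minus DU145 was 0.26, and for the scrambled mimic against untransfected cells it was 0.30. Both rest on 1 scrambled array in DU145, and the share of the transfection in the NPC1 difference was not tested. The cause was not tested.

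Among genes of the other pathway lists the same test for miR-224 against untransfected cells gave 0.86 for GRAMD1B, 0.60 for HMGCS1, 0.61 for LAMP2, 0.67 for LPCAT2, 0.50 for MBOAT1, 1.01 for MSMO1, 0.55 for NCOA1 and 0.79 for STARD4, all PC3 minus DU145 on the log2 scale, with limma adjusted p from 0.00239 to 0.0400. Those of GRAMD1B, MSMO1 and STARD4 held with any 1 array left out. The LAMP2 difference was lost without 1 array (adjusted p = 0.0540), and those of HMGCS1, LPCAT2, MBOAT1 and NCOA1 without 4, 6, 9 and 6 arrays. For miR-224 against the scrambled mimic, PC3 minus DU145 was 0.05 for LPCAT2 and 0.65 for MBOAT1. For the scrambled mimic against untransfected cells it was 0.61 for LPCAT2 and -0.15 for MBOAT1. The DU145 side of these rests on 1 scrambled array, and the other genes are not given against that control here.

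For miR-452 against the scrambled mimic, PC3 minus DU145 was -0.63 for GRAMD1B, 0.72 for LPCAT1 and 0.66 for UBE2D4, a ubiquitin-conjugating enzyme gene, with limma adjusted p of 0.0374, 0.0287 and 0.0206. These were lost without 12, 6 and 5 of the arrays. The DU145 side of each rests on 1 scrambled array.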

How the results depend on the processing

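Counts here include ABCA1. Of 218 counts of called members under an alternative, 188 stayed within 1.5 times the count given, and no called difference turned its sign. Of 2389 single differences, 210 lost a call and 17 gained one. With the replicate block the count fell to 1 for miR-224 against miR-452 in PC3 (NPC2 lost, adjusted p = 0.0666) and to 1 for miR-224 against untransfected cells in DU145 (NPC1 lost, adjusted p = 0.333), and it changed no other count of called members. Of the 41 calls of other pathway genes for which dependence on single arrays is given, the block ended 22, LIPA in DU145 among them. No setting ended 7. The letters did not pair the arrays: deviations of same-lettered arrays correlated with r of -0.31 to 0.273. Exchanging the DU145 miR-452 letters, chosen after seeing the data, gave 1, 2, 0, 0, 0 and 1 calls, the counts without a block. With the mean of both controls, 2 were called for miR-224 in DU145 (NPC1 added). With both lines in 1 fit, or with trend and robust moderation, 1 was called for miR-452 against untransfected cells in DU145 (NPC1). Quantile normalization gave 2 for miR-224 against miR-452 in DU145 (MYLIP added) and 1 for the line difference of miR-452 (ABCA1, adjusted p = 0.0371).

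With each array left out in turn, the count ran from 1 to 4 for miR-224 and from 0 to 2 for miR-452 against untransfected cells in DU145, and from 0 to 1 for the scrambled mimic there. In PC3 it ran from 1 to 2 for miR-224 against miR-452, from 0 to 1 for miR-452 against the scrambled mimic, from 1 to 2 for miR-452 and from 0 to 1 for the scrambled mimic against untransfected cells. For the differences between lines it ran from 0 to 1 for miR-224 against untransfected cells and from 0 to 1 for miR-452 against the scrambled mimic. Without DU145 scrambled b its comparisons cannot be formed. ABCA1 with miR-224 against the scrambled mimic ranged from 0.62 to 0.70 in PC3 and from 1.01 to 1.05 in DU145. The share of all genes called moved more. In PC3 it ran from 6.33% to 22.7% for miR-224 against the scrambled mimic, from 3.36% to 13.7% against untransfected cells and from 8.94% to 24.0% against miR-452, from 2.55% to 10.7% for miR-452 against the scrambled mimic and from 4.39% to 26.5% against untransfected cells, and from 0.446% to 20.8% for the scrambled mimic. In DU145 the same shares ran from 0.0925% to 5.55%, 2.52% to 39.0%, 1.38% to 11.7%, 0.0218% to 8.52%, 2.42% to 52.5% and 0.0% to 30.7%. Signal over background was not given, so what low signal limits for single genes was not measured.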
